A study of Mus musculus with 36 samples.

Results

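This account covers 74 genes of the motile cilium and its axoneme among 40205 features counted in mouse fetal neural stem cells (NSCs) and in the small extracellular vesicles (EVs) that those cells released. The genes were taken by name: dynein heavy chains (Dnah, 15 genes), dynein assembly factors (Dnaaf, 7), cilia and flagella associated proteins (Cfap, 34), radial spoke proteins (Rsph, 7), tektins (Tekt, 5), Spag6, Spag6l, Spag16 and Spag17, the dynein-associated Casc1 and the transcription factor Foxj1. No feature carried a Dnai name. The NSCs were neurosphere cultures from the dorsal telencephalon at gestational day 12.5, labelled C57BL/6J and WT. The study's methods give the mice as C57BL/6J (Ai14), a Cre-dependent reporter line, and no Cre is named in the labels. Fetal tissue was pooled by sex within each of 3 pregnancies (sets 3, 4 and 5), which gave 6 cultures, 3 female and 3 male, and each of them was grown for 5 days with 0, 120 or 320 mg/dL ethanol. Each of the 18 flask sets gave 1 EV library from an ultracentrifuged pellet and 1 library from its parent cells, so there were 36 libraries from 6 cultures, and the 3 libraries of a culture at one location were not independent cultures. A change of transcript level in EVs cannot be told apart from a change in the number of vesicles that carry it.

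Motile cilia beat because dynein arms slide the outer microtubule doublets of the axoneme against each other, under the control of radial spokes and a central apparatus. The dynein arms are built in the cytoplasm by assembly factors before transport, and Foxj1 with the Rfx factors switches on the programme in multiciliated cells such as ependyma. Neural stem cells carry a primary cilium, which lacks most of this machinery and depends on intraflagellar transport and on the BBSome, a cargo adaptor of ciliary membranes.

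EV libraries held 0.959 to 5.51 M counts (median 3.83) and cell libraries 26.6 to 55.3 M (median 37.8). The members took 1696 to 13881 counts per EV library and 7719 to 40281 per cell library, so single members often rested on few EV counts. Of the 74 members, 72 had a count in some library, while Cfap97d2 and Rsph3a were listed at 0 in all 36. The stem cell markers Nes and Vim were abundant in cells, with medians of 293 and 1327 CPM (counts per M library counts, TMM-scaled), but Sox2 was listed at 0 in all 36 libraries. The cells were not a multiciliated population by their markers: the regulators Mcidas and Gmnc had cell medians of 0.0884 and 0.0317 CPM, and 1 of 10 ependymal markers, Foxj1, exceeded a median of 1 CPM in cells.

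Several members are so alike that reads cannot be assigned to one of them with confidence, and their sequences are shown for that reason. Rsph3a and Rsph3b, paralogs of a radial spoke stalk protein on chromosome 17, differed at 1 of 1054 bases over the 7 coding exons of equal length, and 97.9% of their 100-base windows were identical. The 60 coding bases of exon 8 that hold the difference follow (GRCm39, 5′ to 3′ in the sense of the gene, the differing base in capitals), at chr17:8197949-8198008 (plus strand) for Rsph3a and chr17:7172460-7172519 (minus strand) for Rsph3b.
Rsph3a: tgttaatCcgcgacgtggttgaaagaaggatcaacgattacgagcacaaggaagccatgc
Rsph3b: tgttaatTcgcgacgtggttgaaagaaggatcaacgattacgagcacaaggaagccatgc
All counts of the pair were assigned to Rsph3b and none to Rsph3a, so the Rsph3b values below are uncertain as to which copy they came from.

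The inner arm heavy chains Dnah7a, Dnah7b and Dnah7c on chromosome 1 were 96.9% to 97.4% identical over 11909 coding bases in 63 exons, and 11.5% to 18.6% of their 100-base windows were identical between a pair. The stretch of 60 bases in which the 3 genes differ most is shown (GRCm39, capitals mark the 16 positions where not all agree), at chr1:53674491-53674550 (minus) for Dnah7a, chr1:46163555-46163614 (plus) for Dnah7b and chr1:46554492-46554551 (plus) for Dnah7c.
Dnah7a: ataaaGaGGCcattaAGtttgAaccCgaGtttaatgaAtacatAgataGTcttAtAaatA
Dnah7b: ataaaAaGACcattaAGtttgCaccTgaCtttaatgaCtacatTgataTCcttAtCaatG
Dnah7c: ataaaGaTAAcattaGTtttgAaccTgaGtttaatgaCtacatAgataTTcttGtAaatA
These genes differ at enough positions for most windows to be told apart, but a part of their reads remains shared.

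The first comparison asked how the RNA of EVs differed from that of the parent cells. Most axonemal members were higher in EVs: of 64 members that passed the filter on low counts, 49 were higher and 8 lower (edgeR quasi-likelihood test, Benjamini-Hochberg adjusted p under 0.05). This fit had no term for culture, so its standard errors and p-values treat 36 libraries from 6 cultures as independent. Among all 17758 genes tested, 38.1% were higher and 43.7% lower. The median log2 fold change was 1.81 over the members tested and -0.14 over all genes tested. With library totals in place of TMM scaling these medians were 1.23 and -0.65, and with median-of-ratios factors 2.17 and 0.22. The calls among all genes then split into 5219 higher and 9543 lower by totals, against 6766 and 7761 by TMM. Under these 3 scalings the members' median stood 1.88 to 1.96 above that of all genes.

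**Figure D1:**
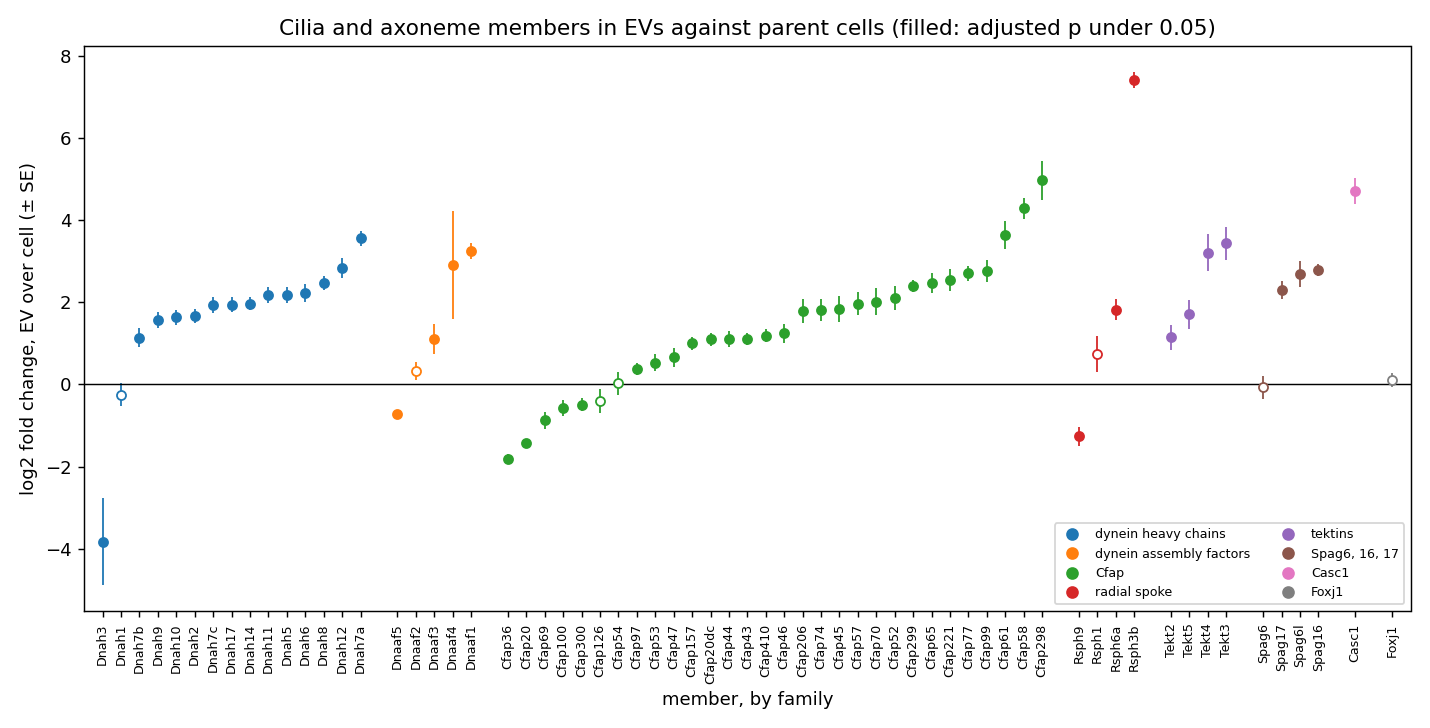
Log2 fold change of EV over cell for the 64 tested members, grouped by family on the horizontal axis, with standard errors as bars. Filled points passed an adjusted p of 0.05. Most points lie above 0, from Rsph3b at 7.42 down to Dnah3 at -3.83. Of the 64, 15 had entered only through EV libraries.

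The filter on low counts bore on these numbers. Of the 64 members, 15 reached the count filter only with the help of EV libraries, and 14 of those were higher in EVs, as were 90% of all genes of that kind. The 15 were Cfap45, Cfap52, Cfap58, Cfap65, Cfap70, Cfap99, Cfap206, Cfap221, Dnaaf1, Dnaaf3, Rsph1, Rsph6a, Spag6l, Tekt3 and Tekt4, and their calls carry no weight as counts, since a gene enters that way only when it is high in EVs. The other 49 members passed on cell libraries alone: 35 of them were higher (71.4%) and 8 lower (16.3%). Of the 14677 genes that passed on cell libraries alone, 27.2% were higher and 52.7% lower. Spearman's rho between the cell level and the fold change was -0.46 over the 64 members. It was -0.61 over 17745 tested genes with a cell median above 0, and the points share their libraries. Both sets hold genes that entered only through EV libraries, and the cell level is also the base of the fold change. Part of a negative rho was therefore fixed in advance, and nothing is concluded from it. Among genes with a cell median of 1 to 4 CPM, 23 of 27 members were higher (85.2%) against 39.8% of all genes. Under 1 CPM the shares were 82.6% and 78%, and these include genes that had entered only through EV libraries. In the 20 members that could be tested after thinning each library to the smallest total, 10 were higher and 0 lower. The filter was applied again after thinning, so members high in EVs could enter through EV libraries. The share over all genes is not given here, and nothing is concluded from this count.

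Of the members tested, 14 did not overlap between the 18 EV and the 18 cell libraries, 12 with all EV values above and 2 with all below. Over all genes tested, these shares were 5.67% above and 17.3% below. The 12 were Rsph3b, Casc1, Cfap58, Cfap61, Dnah7a, Dnaaf1, Spag16, Cfap77, Dnah8, Cfap299, Dnah14 and Dnah17. Of these, Cfap58 and Dnaaf1 had reached the count filter only with the help of EV libraries, so their separation carries no weight. The shares over all genes were not split by that filter. The 2 below were Cfap36 and Cfap20. Of the 49 members called higher, 35 were higher in the mean of all 6 cultures. The same share over all called genes is not given here, so the count describes the members alone. The 49 included 14 that had entered only through EV libraries.

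Rsph3b had the largest difference of any member. It ran from 175 CPM through a median of 409 to 625 CPM in EVs, and from 1.17 through 2.3 to 2.92 CPM in cells. All EV libraries lay far above all cell libraries. The fold was 172 (log2 7.42 ± 0.19 SE, adjusted p = 3.62e-27), in the same direction in 6 of 6 cultures. Opposite-strand annotation covers 15% of its exons.

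Cfap298, a factor of dynein arm assembly and cilia polarity, had the highest level per kilobase of exon in both locations among the 72 members placed in GENCODE, with medians of 399 CPM per kb in EVs and 12.8 in cells. Its level ran from 4.76 through 1948 to 6864 CPM in EVs and from 30.3 through 62.4 to 109 CPM in cells. In EVs, 2 libraries, the male culture of set 5 at 0 mg/dL and that of set 4 at 120 mg/dL, held 22 and 49 counts of it, while the other 16 held 786 to 10234. The groups therefore overlapped through those libraries, and the log2 fold change was 4.97 ± 0.47 (adjusted p = 4.35e-12). Cfap298 made up 71.8% of all member counts in the median EV library and 17.7% in the median cell library. Genes on the opposite strand overlap 55.8% of its exon bases, and how HTSeq was set for strand is not given in the sources used here, so reads of those genes and of Cfap298 cannot be told apart.

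Casc1, also called Dnai7, encodes a protein linked to axonemal dynein. It ranged from 9.49 through 37.2 to 132 CPM in EVs and from 0.51 through 1.61 to 3.89 CPM in cells, a log2 difference of 4.70 ± 0.31 (adjusted p = 2.42e-16). The lowest EV library stood above the highest cell library.

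The dynein heavy chains, the motors of the axoneme, moved mostly in one direction: 13 of 15 were higher in EVs and 1 lower. All 15 passed the filter on cell libraries alone, and of all genes that did, 27.2% were higher and 52.7% lower. Dnah5, the main outer arm chain, ran from 1.79 through 5.64 to 16.6 CPM in EVs and from 0.833 through 1.31 to 2.72 in cells. Its log2 fold change was 2.18 ± 0.19 (adjusted p = 3.33e-13). The other outer arm chains Dnah8, Dnah9, Dnah11 and Dnah17 rose by 2.48, 1.57, 2.17 and 1.94 on the log2 scale. Of the inner arm chains, Dnah7a rose by 3.55, Dnah12 by 2.83, Dnah6 by 2.22, Dnah2 by 1.67 and Dnah10 by 1.63. Dnah1, another inner arm chain, had a log2 fold change of -0.24 ± 0.28 (adjusted p = 0.449), and its groups overlapped throughout.

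Dnah3 was the 1 chain called lower, and that call rested on a few cell libraries. Of the 18 cell libraries, 13 held 21 to 70 counts of it and 5 held 2602 to 20527. The 5 were the female cultures of sets 3 and 4 at 0 mg/dL, of set 4 at 120 mg/dL and of set 5 at 320 mg/dL, and the male culture of set 4 at 120 mg/dL. EV libraries held 1 to 20 counts. The log2 fold change was -3.83 ± 1.06 (adjusted p = 0.00128). It was -2.51 (adjusted p = 0.0686) without set 4 and -0.88 (adjusted p = 0.362) with the matched EV and cell libraries paired in a block.

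**Figure D2:**
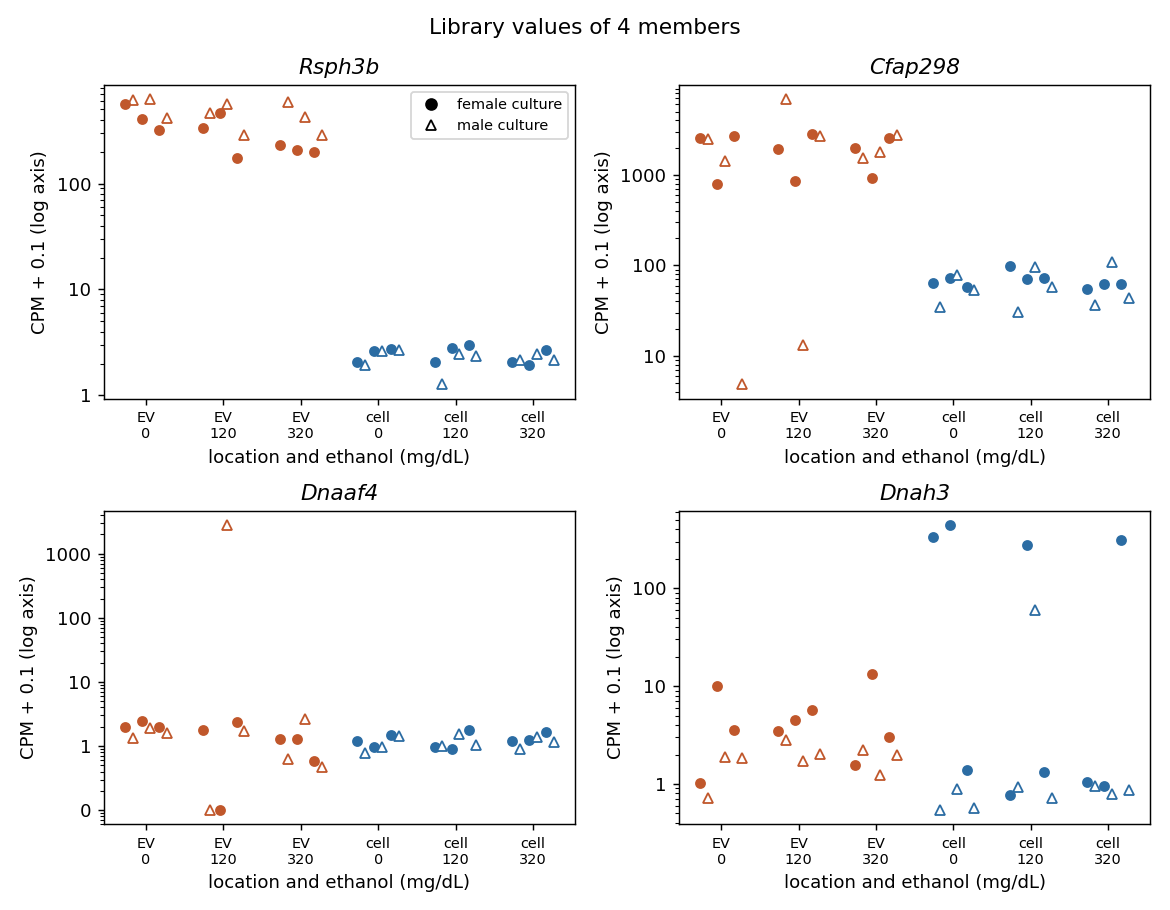
CPM plus 0.1 on a log axis in each of the 36 libraries for Rsph3b, Cfap298, Dnaaf4 and Dnah3, by location and ethanol dose (mg/dL), filled circles for female and open triangles for male cultures. Rsph3b separates EVs from cells, while Cfap298, Dnaaf4 and Dnah3 each have a few libraries far from the rest.

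Among the assembly factors, which fold and load dynein arms, Dnaaf1 rose in EVs by 3.24 ± 0.19 on the log2 scale, from 0.154 to 0.52 CPM in cells to 0.873 to 6.18 CPM in EVs. Dnaaf3 stood at 1.10 ± 0.37 at low levels, and Dnaaf5 fell by 0.73 on the log2 scale (SE 0.11). Both Dnaaf1 and Dnaaf3 had entered only through EV libraries, so their calls carry no weight as counts. Dnaaf2 stood at 0.33 ± 0.21 (adjusted p = 0.152). Dnaaf4 was called higher (log2 2.91 ± 1.31, adjusted p = 0.0404) through 1 EV library. The male culture of set 4 at 120 mg/dL held 10464 counts of Dnaaf4 and the other 17 EV libraries 0 to 9. Without set 4 the value was 0.20 (adjusted p = 0.463). Other annotated genes overlap 45% of the Dnaaf4 exon bases on the same strand and 47.4% on the opposite strand.

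In the Cfap family, 22 genes passed the filter on cell libraries alone, and 15 of them were higher and 5 lower. Of all genes that passed that way, 27.2% were higher and 52.7% lower. The other 8 tested, Cfap45, Cfap52 and Cfap58 among them, entered only through EV libraries. Cfap58, known from sperm flagella, ran from 1.58 to 13.2 CPM in EVs and from 0.165 to 0.535 in cells, and Cfap61, of the radial spoke base, from 2.6 to 68.8 and from 0.643 to 1.61. Their log2 fold changes were 4.29 ± 0.25 and 3.64 ± 0.34. Cfap43 and Cfap44, which tether the inner arms, rose by 1.11 and 1.10, and the microtubule inner proteins Cfap45, Cfap52 and Cfap53 by 1.84, 2.10 and 0.53. Cfap410 rose by 1.18, and a gene on the opposite strand overlaps 57.9% of its exon bases. Cfap54, of the central apparatus, had a log2 fold change of 0.03 ± 0.28 (adjusted p = 0.924).

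Of the 8 members lower in EVs, Cfap36 and Cfap20 had cell medians above that of every other member but Cfap298. Cfap36, which binds the ciliary GTPase Arl3, ran from 5.46 through 12.3 to 20.4 CPM in EVs and from 34.1 through 44.7 to 63.5 CPM in cells, with no overlap. It fell by 1.82 on the log2 scale (SE 0.12, adjusted p = 1.38e-16). Cfap20, of the inner junction of the doublets, ran from 4.75 through 10.3 to 14.7 CPM in EVs and from 20.6 through 29.7 to 34.7 in cells, and fell by 1.43 (SE 0.11). Rsph9, of the radial spoke head, fell by 1.27 (SE 0.24), from a cell median of 2.49 to an EV median of 1.02 CPM, with some overlap.

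In the radial spokes, Rsph6a stood at 1.82 ± 0.27 and Rsph1 at 0.75 ± 0.43 (adjusted p = 0.111), and both entered only through EV libraries. Of the tektins, filament proteins inside the doublets, Tekt2 and Tekt5 passed the filter on cell libraries and rose by 1.15 and 1.71. Tekt3 and Tekt4, which entered only through EV libraries, stood at 3.44 and 3.21, and Tekt1 was not tested. Of the central apparatus genes, Spag16 rose by 2.78 ± 0.15 and Spag17 by 2.31 ± 0.22, while Spag6 stood at -0.07 ± 0.28 (adjusted p = 0.816). Spag6l, which entered only through EV libraries, stood at 2.69 ± 0.32.

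Foxj1, the regulator of the motile programme, did not pass the test. It ran from 1.19 through 3.89 to 7.5 CPM in EVs and from 1.91 through 3.77 to 5.34 CPM in cells, so the groups overlapped over most of their range. Its log2 fold change was 0.11 ± 0.17 (adjusted p = 0.565), but 0.46 (adjusted p = 0.0124) with median-of-ratios factors and -0.41 (adjusted p = 0.0708) with library totals. The ependymal marker list as a whole summed to 5.64 to 11.4 CPM in EVs and 3.89 to 7.47 CPM in cells. Endothelial markers summed to 3.75 to 70.3 CPM in EVs against 1.68 to 5.56 in cells, and choroid plexus markers to 3.16 to 33.1 against 1.88 to 34. High sums rested on single genes. Flt1 reached 67.7 CPM in EVs, while Pecam1, Cdh5 and Kdr reached 4.75, 4.75 and 5.24 and Cldn5 stayed at 0. Among choroid plexus markers Kl reached 31.6 CPM in EVs and 0.902 in cells, and Otx2 9.84 and 33.1. Ttr had medians of 0 CPM in EVs and 0.0902 in cells. Sums of other cell type lists are not given here. The part of such transcripts in the members' values was not tested.

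The neighbouring gene lists of the cilium are read against the 38.1% of all genes tested that were higher in EVs and the 43.7% that were lower, and differences between lists were not tested. In the docking complex, which anchors outer arms, 4 of 5 tested genes were higher and 0 lower. Of the light and light-intermediate dynein chains, 3 of 5 were higher and 1 lower, of the nexin-dynein regulatory complex and rulers 3 of 7 higher and 2 lower, and of the central apparatus and other axoneme genes 10 of 17 higher and 4 lower. In the docking, light chain and central apparatus lists, 1, 1 and 3 of the tested genes had entered only through EV libraries. Hydin, a giant central apparatus protein, rose by 2.72 on the log2 scale, whereas the tubulins Tuba1a and Tubb4b fell by 1.92 and 1.67. In intraflagellar transport, 2 of 28 tested genes were higher and 23 lower, with a median log2 fold change of -0.84. The transport particle gene Ift88 fell by 0.57, the motor Kif3a by 1.43 and the retrograde motor Dync2h1 by 1.19. In the BBSome and primary cilium list, 3 of 20 were higher and 16 lower, with a median of -1.10. Assembly factors listed under other names gave 3 of 7 higher and 4 lower, and regulators of multiciliogenesis 5 of 12 higher and 5 lower. Of those regulators, Trp73, called higher, had entered only through EV libraries. The lists differed in their cell levels, with median cell levels of 1.58 CPM for the tested members, 16 CPM for intraflagellar transport and 11.9 CPM for the BBSome list, against 7.76 CPM for all genes tested. Among all genes with a cell median of 4 to 20 CPM, 55% were lower in EVs.

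**Figure D3:**
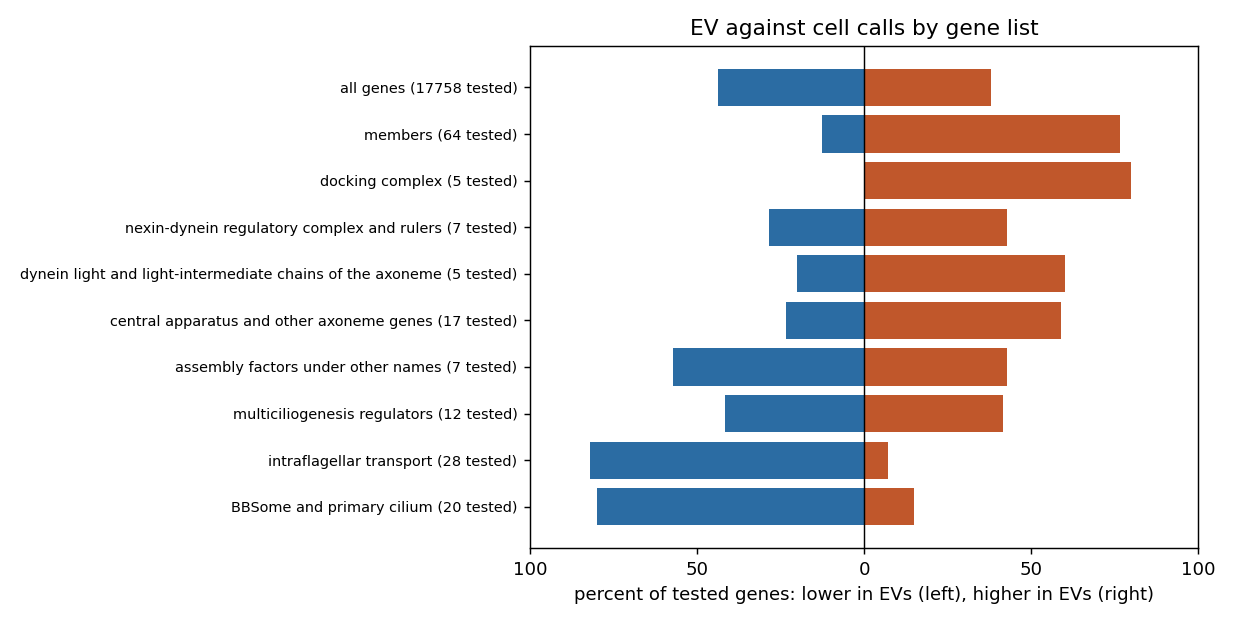
Percent of tested genes called lower (left, blue) or higher (right, orange) in EVs for all genes, the members and 8 related lists, with the number tested beside each name. Members were higher in 76.6% and lower in 12.5% of cases, against 38.1% and 43.7% of all genes. The members drawn include 15 that entered only through EV libraries. Those that passed on cell libraries alone were higher in 71.4% and lower in 16.3%, against 27.2% and 52.7% of all such genes. The nexin-dynein list had calls on both sides, and intraflagellar transport and the BBSome list had mostly lower calls.

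The promoters of the members were also searched for the binding motif of Rfx factors. The half-site GTTGCC, on either strand of the 300 bases around each start, was present for 27 of 62 members with a RefSeq promoter (43.5%) and for 14.1% of 27025 genes. The near-palindrome GTTNCCNNGGNAAC, which overlaps the half-site, was present for 4 of 62 members (6.45%) and 0.529% of all genes. In all, 7 spellings had been looked at, and median GC content was 56% in member promoters and 52.7% in all. The holders of the palindrome were Cfap20dc, Cfap298, Dnaaf6 and Dnaaf6b. The windows of Cfap298 and Cfap20dc, and that of the half-site in Cfap20, which was lower in EVs, are shown with the motif in capitals (RefSeq, GRCm38.p6, in the sense of the gene, all 3 on the minus strand), at chr16:90935008-90935053, chr14:8666363-8666408 and chr8:95434942-95434979.
Cfap298: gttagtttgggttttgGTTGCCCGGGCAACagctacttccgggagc
Cfap20dc: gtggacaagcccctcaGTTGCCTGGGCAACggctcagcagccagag
Cfap20: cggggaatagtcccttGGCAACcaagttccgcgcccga
The half-site was found in members that were higher in EVs (Cfap298, Rsph3b, Cfap58) and lower (Cfap20, Dnaaf5, Cfap100, Cfap300). Dnah7a, Dnah7b and Dnah7c, which are near-identical, count here as separate members, as do Dnaaf6 and Dnaaf6b. A match of letters is not evidence that a factor binds there. Whether the motif bears on the difference between EVs and cells was not tested.

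The next comparisons asked whether ethanol changed the members. The doses share their control libraries, and the culture was kept as a block. In EVs edgeR called 0 of 48 tested members at 120 mg/dL and 0 at 320 mg/dL, and it called 0.00758% and 0.0758% of all 13193 genes. At an unadjusted p under 0.05 there were 3 of 48 members at 120 mg/dL and 2 at 320 mg/dL, against 784 and 1429 of 13193 genes. DESeq2 called 0 and 2 members. The shares of all genes that DESeq2 called for ethanol are not given, here or below, so its counts describe the members alone.

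Dnah17 was the member with the smallest p at both doses in EVs. In the female cultures of sets 3, 4 and 5, Dnah17 stood at 40.2, 31.1 and 15.2 CPM without ethanol, at 17.4, 20.1 and 11.7 CPM with 120 mg/dL and at 19.4, 14.3 and 12.3 CPM with 320 mg/dL. In the male cultures Dnah17 stood at 40.6, 21 and 34.2 CPM without ethanol, at 31.4, 19.9 and 19.4 CPM with 120 mg/dL and at 27.4, 16.1 and 15.8 CPM with 320 mg/dL. Every culture was lower with ethanol than without at both doses, while the ranges across cultures overlapped. Dnah17 was picked for its small p, and both doses share the same controls. The agreement of its cultures, here and in the next paragraph, is therefore no separate support. The log2 difference was -0.55 ± 0.15 at 120 mg/dL (unadjusted p = 0.00218, adjusted p = 0.714) and -0.72 ± 0.15 at 320 mg/dL (unadjusted p = 0.000241, adjusted p = 0.136). At 320 mg/dL the adjusted p was 0.0086 in DESeq2 and 0.00752 in edgeR without the filter on low counts. Over the alternatives at 320 mg/dL the adjusted p ran from 0.00752 to 1.

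In the parent cells Dnah17 stood at 1.32 to 8.39 CPM without ethanol, 3.95 to 7.98 at 120 mg/dL and 3.74 to 8.2 at 320 mg/dL. The difference between the EV and the cell response was -0.76 ± 0.27 at 120 mg/dL (adjusted p = 1) and -0.99 ± 0.27 at 320 mg/dL (adjusted p = 0.551), in the same direction in 6 of 6 cultures.

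Rsph3b was the other member with a small p at 320 mg/dL in EVs. Having been picked for that p, Rsph3b gains no separate support from the agreement of its cultures. It stood at 320 to 625 CPM without ethanol and 199 to 587 CPM with 320 mg/dL, lower in 6 of 6 cultures (log2 -0.66 ± 0.20, adjusted p = 0.209; DESeq2 adjusted p = 0.0127).

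**Figure D4:**
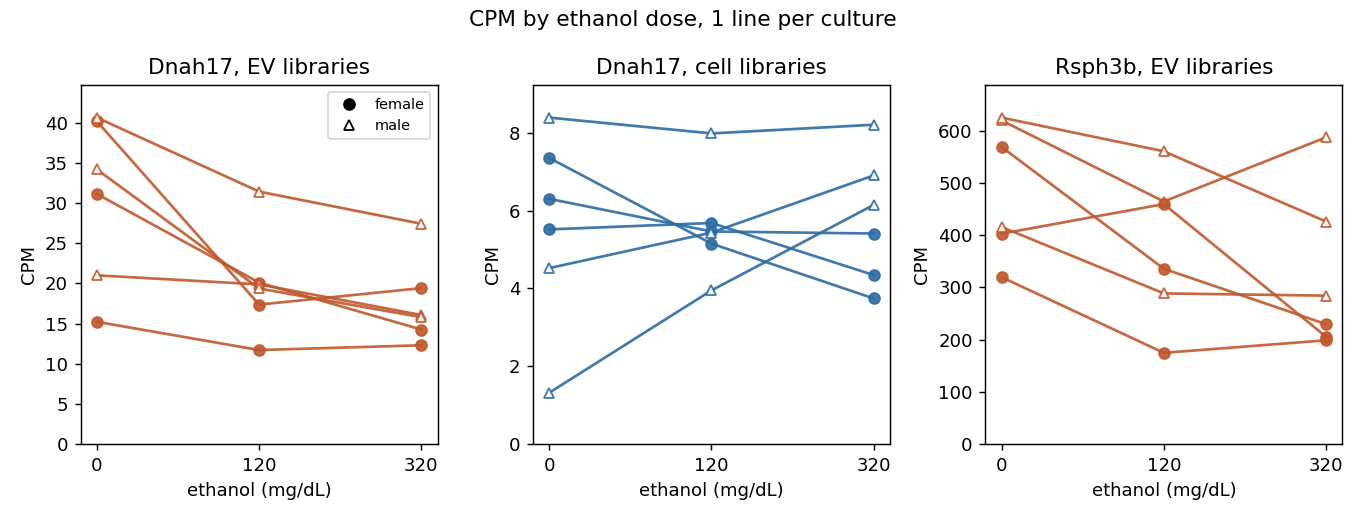
CPM of Dnah17 in EVs, Dnah17 in cells and Rsph3b in EVs against ethanol (mg/dL), 1 line per culture, filled circles for female and open triangles for male. All 6 lines of Dnah17 in EVs lie lower at 120 and 320 mg/dL than at 0, and those of the cells do not share a direction.

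In cells edgeR called 0 of 65 tested members at either dose and 0% of all 18725 genes at 120 mg/dL and 0% at 320 mg/dL. At an unadjusted p under 0.05 there were 7 of 65 members at 120 mg/dL and 5 at 320 mg/dL, against 476 and 1575 of 18725 genes. DESeq2 called 0 members at both. The smallest p at 120 mg/dL belonged to Dnaaf1 (log2 -0.62 ± 0.21, adjusted p = 1) and Rsph6a (-0.62 ± 0.23), and at 320 mg/dL to Cfap100 (0.26 ± 0.09, adjusted p = 0.434) and Cfap54 (-0.25 ± 0.09). Dnaaf1 and Rsph6a were low in cells, at most 0.52 and 0.463 CPM, while Cfap100 ran from 5.77 to 24.1 CPM and Cfap54 from 1.77 to 15.8 CPM. The difference between the EV and cell response was called for 0 of 70 members at either dose, against 0.00875% and 0% of all 22854 genes. There were 5 and 4 of 70 members at an unadjusted p under 0.05, against 715 and 1064 of 22854 genes. DESeq2 called 0 members at both doses. Dnaaf4 had a value of 2.92 ± 1.14 at 120 mg/dL through the single EV library named above.

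The last comparisons set female against male cultures. In EVs 12 of 42 tested members were higher in females and 1 lower, against 7.59% and 4.45% of all 12252 genes tested. The 12 were Dnah3, Dnah5, Dnah6, Dnah7b, Dnah9, Dnah12, Cfap20dc, Cfap47, Cfap54, Cfap77, Spag16 and Spag17, so 6 were heavy chains, and the 1 lower was Cfap97. These calls changed with the pregnancies included: 26 members were called without set 3, 1 without set 4 and 0 without set 5. With the 3 doses of a culture added up to 1 sum, 3 sums against 3, edgeR called 0 and 21 members had an unadjusted p under 0.05. With the pregnancy as a block it called 25. The shares of all genes under these alternatives are not given here, so these counts describe the members alone. Low depth fell mostly on the female side, since 4 of the 6 EV libraries under 2 M counts were female, among them all 3 of the female set 4 culture. Without those 6, which left 5 female and 7 male libraries, edgeR called 0, and the parts of depth and of the smaller number of libraries in that loss cannot be told apart.

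Cfap77, a microtubule inner protein, ran from 3.56 through 5.3 to 8.4 CPM in female EVs and from 1.05 through 1.94 to 3.38 CPM in male EVs, and the 9 libraries of each sex did not overlap. The log2 difference was 1.59 ± 0.26 (adjusted p = 0.00697), higher in 3 of 3 pregnancies. Dnah5 ran from 4.41 through 11 to 16.6 CPM in female EVs and from 1.79 through 3.76 to 5.81 in male EVs, with some overlap and a log2 difference of 1.62 ± 0.33 (adjusted p = 0.0139). In cells Dnah5 ran from 0.979 to 2.72 CPM in females and from 0.833 to 1.41 in males, and did not pass the test (0.54 ± 0.19, adjusted p = 0.101). The counts behind these EV values were low, 9 to 45 for Dnah5 in female and 4 to 18 in male EV libraries.

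**Figure D5:**
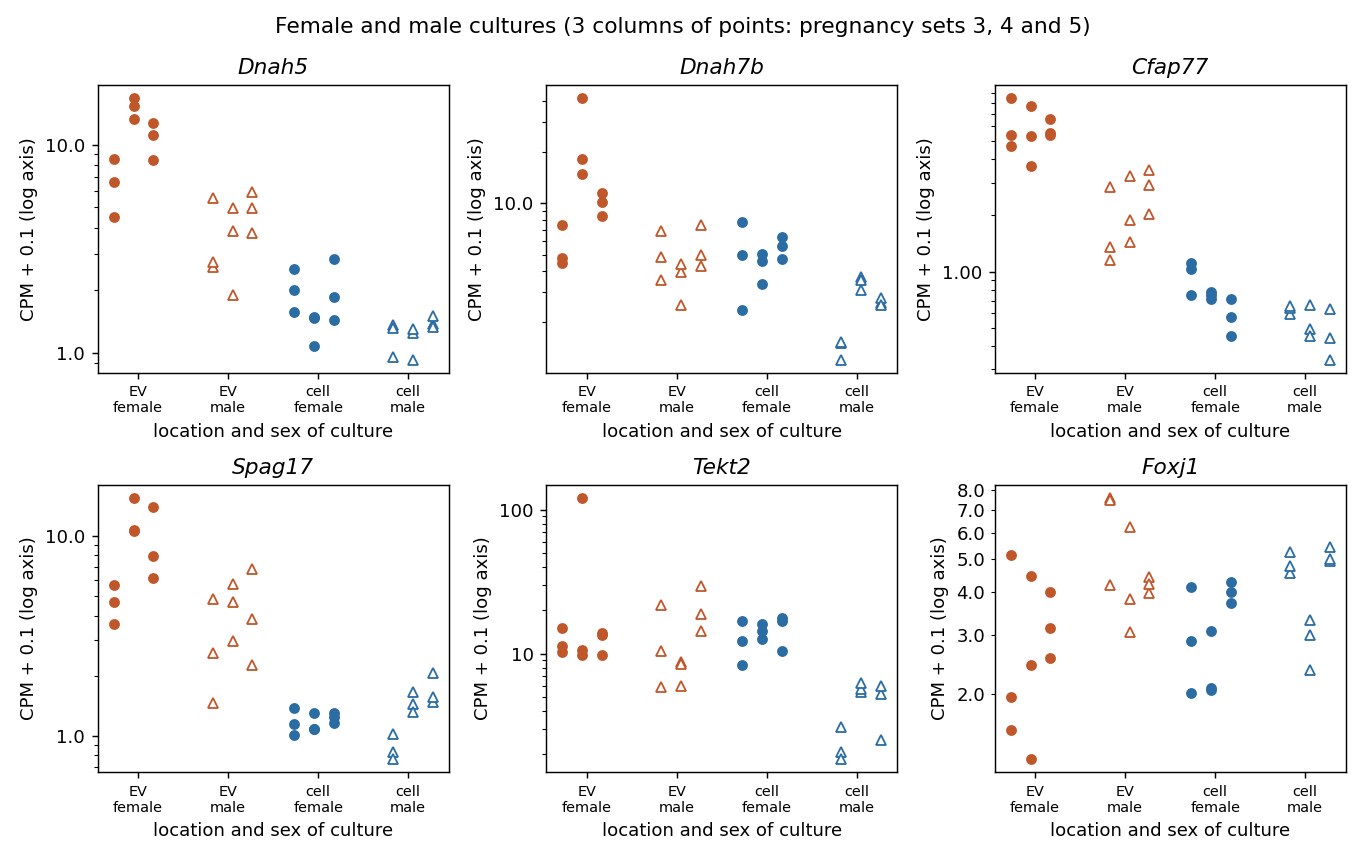
CPM plus 0.1 on log axes of 6 members in EV and cell libraries of female (filled circles) and male (open triangles) cultures, with the 3 columns of points in each group for pregnancy sets 3, 4 and 5. Cfap77 separates the sexes in EVs and Tekt2 in cells, while Foxj1 overlaps in both.

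In cells 5 of 64 tested members were higher in females and 0 lower, against 3.19% and 2.51% of all 18048 genes tested. They were Tekt2, Tekt5, Dnah7b, Dnah14 and Cfap52. Tekt2 ran from 8.17 through 14.2 to 17.7 CPM in female cells and from 1.74 through 5.16 to 6.16 in male cells, with no overlap (log2 1.77 ± 0.26, adjusted p = 0.00108). Tekt5 ran from 6.29 through 11.6 to 16.8 CPM in female and from 1.36 through 3.48 to 5.81 in male cells, also with no overlap (log2 1.74 ± 0.29, adjusted p = 0.00209). Both were higher in 3 of 3 pregnancies. In EVs the sexes overlapped for Tekt2, at 9.61 to 121 CPM in females and 5.8 to 29.4 in males. Whether the sex difference itself differed between EVs and cells was not tested. With sums over doses 0 members were called in cells (6 at an unadjusted p under 0.05), with the pregnancy as a block 18, and 2 without set 5, Tekt2 higher and Cfap100 lower. These counts too stand without the shares of all genes.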

How the data were processed

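The authors deposited 1 table of whole-number read counts per gene for each of the 36 libraries. They had depleted ribosomal RNA, prepared stranded libraries, removed adapters and duplicate reads, mapped what was left to mm39 with STAR and counted it per gene with HTSeq. The strand setting is not given in the sources used here.

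Counts were tested with edgeR 4.0.16 in R 4.3.3 (quasi-likelihood F test, TMM, filterByExpr with a minimum count of 10 and total of 15, Benjamini-Hochberg over all genes tested). EV against cell had terms for sex and dose. Ethanol was tested with the culture as a block, and sex with a term for dose. Neither the EV-against-cell fit nor the sex fit had a culture term, so their p-values treat the libraries of a culture as independent. CPM values are TMM-scaled, and ± marks a standard error from the F statistic. DESeq2 1.42.0 was an alternative. Scripts were tested on simulated data.

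Samples with the same set and sex come from the same litter and culture, so numbers pair them. Median correlations of their deviations from group means were 0.0443 for EV and cell libraries, 0.117 to 0.137 for EV doses and 0.443 to 0.524 for cell doses.

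Genes were placed by symbol in GENCODE M39 (GRCm39, 72 of 74). Members and lists were chosen with earlier results of these data known. Named were the key members, the 3 largest called changes in each direction between EVs and cells that held in all 6 cultures, up to 10 called members (or the 2 with the smallest p) elsewhere, the 3 with the highest means in each location, and others where a count singled them out after the values were seen.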

Additional observations from a re-analysis of the deposited data

Results flagged for a closer look

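Within groups of 6 libraries of one location and dose, 10 of 90 groups checked for 15 members had a library far from the other 5 by a gap rule. Chance meets that rule in about 1 in 20 groups only where values are normally distributed, which CPM from low counts need not be. The 10 are therefore not set against a chance rate. Dnaaf4 and Dnah3 were also named for high means that such libraries raised. No cause was tested. Dnaaf4 stood at 2810 CPM in the EVs of the male set 4 culture at 120 mg/dL, against 0 to 2.23 CPM in the others, and at 2.58 CPM in the EVs of the same culture at 320 mg/dL against 0.376 to 1.19. Dnah3 stood at 275 CPM in the female set 4 cells at 120 mg/dL (others 0.624 to 60.2) and at 308 CPM in the female set 5 cells at 320 mg/dL (others 0.684 to 0.936). In EVs of the female set 4 culture Dnah3 stood at 9.98 CPM at 0 mg/dL (others 0.625 to 3.42) and 13.1 CPM at 320 mg/dL (others 1.15 to 2.95). Casc1 stood at 132 CPM in the EVs of the male set 5 culture at 120 mg/dL, against 22.7 to 48.2. Cfap54 stood at 23.8 CPM in the EVs of the female set 4 culture at 320 mg/dL, against 3.38 to 10.3. Cfap298 stood at 109 CPM in the male set 4 cells at 320 mg/dL, against 36.2 to 62.6. Cfap44 was low, at 1.02 CPM, in the EVs of the male set 4 culture at 0 mg/dL, against 2.81 to 3.74.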

How the results depend on the processing

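Of 496 values of named members under the alternatives for EV against cell, 421 kept their direction and side of the threshold, 43 lost and 10 gained a call and 22 changed sign. Thinned to the smallest total, 10 members were called, 10 higher and 0 lower, since 20 could be tested. Members high in EVs could enter that test through EV libraries. Control libraries gave 5 lower. Leaving out 1 pregnancy gave 50 to 58 called members, 44 to 50 higher and 6 to 8 lower. For ethanol, leaving out the filter called 1 member (120 mg/dL in EVs), 1 (320 mg/dL in EVs), 1 (EV-to-cell difference at 120 mg/dL) and 1 (at 320 mg/dL), and DESeq2 called 2 at 320 mg/dL in EVs. Leaving out 1 pregnancy gave 0 to 1 for both EV-to-cell differences.

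For sex in EVs, totals called 6 (6 higher, 0 lower), DESeq2 20 (19 higher), no filter 2 lower, the pregnancy block 25 (23 higher, 2 lower), sums over doses 0 and the deeper EV libraries, chosen after the data were seen, 0. Leaving out 1 pregnancy gave 0 to 26 (0 to 25 higher, 0 to 1 lower). For sex in cells, totals called 3, no filter 3, DESeq2 8, the pregnancy block 18 (16 higher, 2 lower) and sums 0. Leaving out 1 pregnancy gave 2 to 8 (1 to 8 higher, 0 to 2 lower). The replicate block changed no other count by over 1.5 times. For all the alternatives in this section, calls over all genes are not given beside those of the members.

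These values changed sign, none of them past the threshold with the changed sign. Foxj1 (EV against cell) was -0.41 by totals, -0.23 without filter, -0.017 to 0.33 when 1 pregnancy was left out, -0.15 with the pair block, -0.25 with sums and -0.051 in the deeper libraries. Dnah1 was 0.095 by median-of-ratios factors, 0.11 in DESeq2 and 0.19 in controls. Dnaaf2 was -0.19 by totals and -0.0015 without filter. Cfap54 was -0.46 by totals, -0.32 without filter, -0.0032 to 0.25 when 1 pregnancy was left out, -0.14 with the pair block, -0.25 with sums, -0.088 in controls and -0.27 in the deeper libraries. Spag6 was 0.29 by median-of-ratios factors, 0.29 in DESeq2, -0.41 to 0.31 when 1 pregnancy was left out and 0.31 in controls. Dnaaf4 was -0.043 to 4.48 when 1 pregnancy was left out of the EV-to-cell difference at 120 mg/dL, and passed without set 5. The causes were not tested. Depth limits EVs, where many members had under 10 counts in some libraries.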

Other observations

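The intermediate chain genes of the outer arm carry older names in these files, Dnaic1 and Dnaic2, and so fell outside the rule. Dnaic1 ran from 0.934 through 3.02 to 6.92 CPM in EVs and from 0.573 through 0.883 to 1.47 CPM in cells. Dnaic2 ran from 0.625 through 3.23 to 7.25 CPM in EVs and from 0.864 through 1.97 to 6.8 CPM in cells. Both overlapped between locations and were not tested as members.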
